A study of Mus musculus with 11 samples.

Results

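Chondroitin sulfate proteoglycans are proteins that carry long sulfated sugar chains into the matrix around cells. The genes described here are 7 by name: the lecticans Bcan (brevican), Ncan (neurocan), Vcan (versican) and Acan (aggrecan), the membrane proteoglycans Cspg4 (also called NG2) and Cspg5 (neuroglycan C), and Ptprz1, a receptor tyrosine phosphatase that carries such chains. They were taken as every probe set whose platform annotation gives 1 of these symbols and no other, which gave 13 probe sets of 7 genes among the 22626 non-control probe sets and 12393 genes so annotated. The set was gathered around Bcan because its level was known to differ between the genotypes, so the differences between genotypes below are a description of these arrays. For the 7 genes the fit over the whole table is quoted in places, as a call or a 95% interval. Both set the difference of group means against its estimated error, and neither is used as support.

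The RNA came from sympathetic ganglia of male mice of 78 weeks on a C57BL background, kept on normal chow, with 6 arrays from apoE-/- animals and 5 from wild-type animals. The ganglia were cut from frozen tissue by laser capture, so each array holds neurons, glia, vessels and whatever tissue adhered. The labels do not tie an array to an animal. The spread between arrays may therefore be partly technical, and p-values would be too small if arrays shared an animal. The apoE-/- mice lack apolipoprotein E in the whole body, so a difference cannot be placed in the ganglion itself or in the circulation.

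Lecticans bind the sugar polymer hyaluronan with the first part of the protein and tenascins with the last part, and link proteins fasten them to hyaluronan. In the central nervous system such aggregates form perineuronal nets around neurons, and brevican and neurocan are known chiefly from the brain. Versican is widespread in connective tissue and vessel walls, aggrecan is the main proteoglycan of cartilage, Cspg4 marks pericytes and oligodendrocyte precursors, and Ptprz1 is made by glia. The sulfated chains can stop growing axons through receptors that include Ptprs, Ptprf and Rtn4r.

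The labels were borne out by Apoe, whose signal lay between 7.2 and 268.2 on the Apoe-deficient arrays and between 11830.3 and 19649.2 on the wild-type arrays. Of the noradrenergic neuron markers, 8 of 8 with a probe set passed the filter on low values described next. So did 8433 of all 12393 genes, so passing it cannot check the tissue label. Mean wild-type signals of the 8 ran from 211 for Hand2 to 24266 for Npy. In 1 technical measure the arrays stood apart: the signal of the standards added at hybridisation was low on replicates 2, 3 and 4 of the Apoe-deficient group and high on replicates 1 and 6 of that group and 1 and 2 of the wild-type group. The remaining 4 arrays lay in the middle. For the proteoglycans, and for the list genes given with an adjusted p, the value without the 3 low arrays is given where it moved a difference by over 1.5 times or ended a call.

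Of the 7 genes, 5 had a probe set past the filter, which asks for a value above the 40th percentile of all values on at least 5 arrays. These were Bcan, Ncan, Cspg4, Cspg5 and Ptprz1. Vcan and Acan were measured but had 0 probe sets past the filter, so a low level there cannot be told from background. Of the 13 probe sets, 8 passed. In the fit over 8433 genes, 1 of the 5 genes past the filter was called at an adjusted p under 0.05, and it was Bcan, in the lower direction. That is the value the set was gathered around, so nothing is read from it. Over all tested genes 1.93% were called, 1.26% higher and 0.676% lower, and 1708 of the 8433 had an unadjusted p under 0.05. In the unfiltered fit of 22626 probe sets 1 of the 13 was called, again that of Bcan, beside 0.734% of all probe sets, 0.526% higher and 0.208% lower. That call was lost when the 3 low arrays were left out and when the model held the level of the standards. Of the 5 genes 4 had a negative difference, with a median of -0.05, beside -0.04 over all tested genes.

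**Figure D1:**
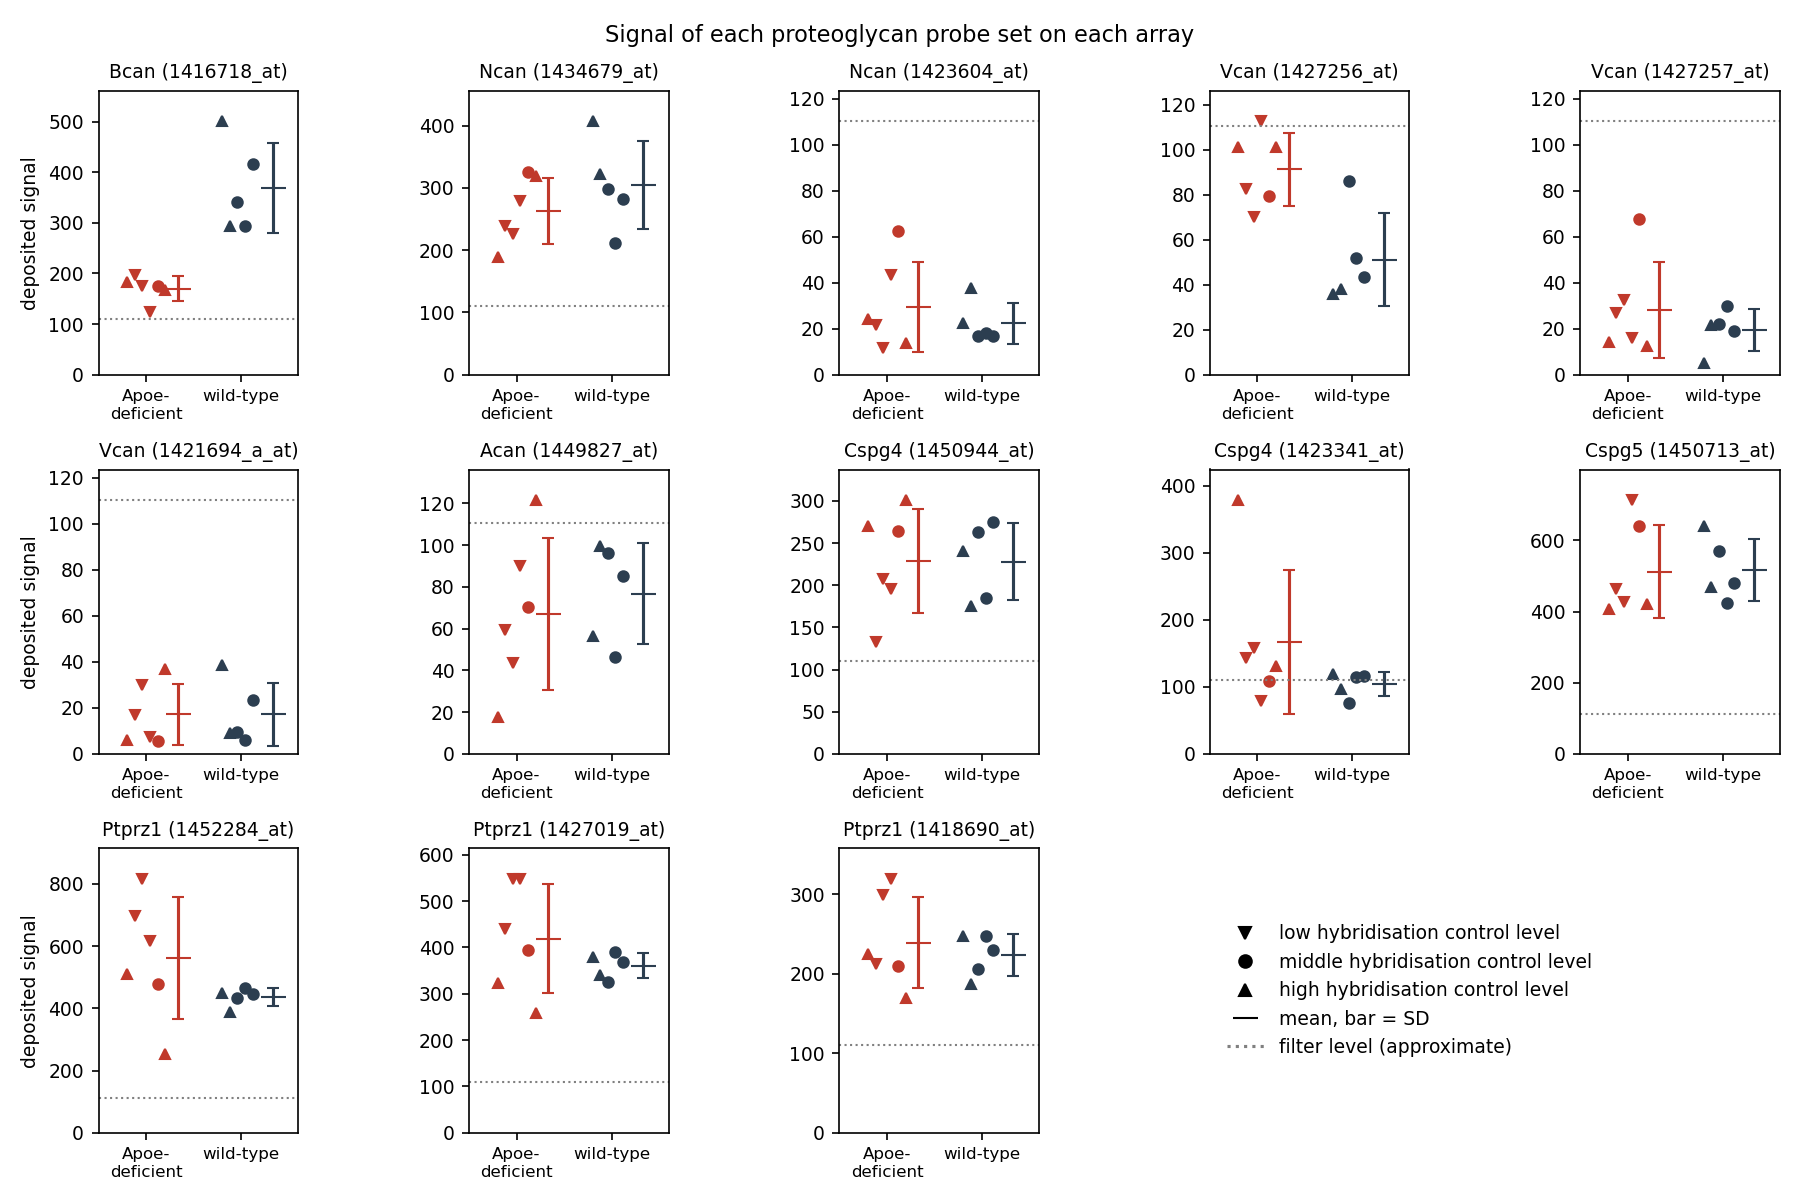
Deposited signal (linear, vertical axis) of the 13 probe sets on each array, Apoe-deficient arrays left and wild-type arrays right. Each point is 1 array, its shape gives the level of the hybridisation standards, and the crossed bar gives the mean and SD. Bcan is the panel in which the groups are apart, with a highest Apoe-deficient signal of 196.1 and a lowest wild-type signal of 293.5; the dotted line is the filter level turned back to signal, near 110.

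Bcan was lower on every Apoe-deficient array than on any wild-type array. The lowest, median and highest Bcan signals on the 6 Apoe-deficient arrays were 124.5, 175.2 and 196.1. On the 5 wild-type arrays the Bcan signals were 501.2, 293.9, 340.8, 293.5 and 416.9. The groups therefore did not overlap, with a gap between 196.1 and 293.5. Bcan was the single one of the 13 probe sets with this property. Groups that did not overlap were found for 2.96% of all tested genes, 1.51% in the lower direction, and for 2.11% of all probe sets. Apoe-deficient ganglia averaged a Bcan signal of 170 ± 24.5 (SD, n = 6) and wild-type ganglia 369 ± 89.3 (SD, n = 5), a ratio of 0.461. On the log2(signal + 16) scale, quantile normalised, the difference was -1.04 (SE 0.16, 95% interval -1.37 to -0.70). That scale slightly understates the change of weak signals. In bulk tissue, fewer cells that make brevican and less brevican RNA in each cell cannot be told apart.

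The Bcan difference had a like size at each level of the hybridisation standards that could be compared. Within the high level, with 2 arrays of each genotype, mean log2 values were 7.56 in Apoe-deficient and 8.65 in wild-type ganglia, a difference of -1.09. Within the middle level, 1 Apoe-deficient array had 7.53 and 3 wild-type arrays had a mean of 8.51, a difference of -0.98. The low level held Apoe-deficient arrays only, and their mean was 7.51. In a model that held this level as a block the difference was -1.04 (SE 0.20). Without the 3 low arrays it was -1.01 (SE 0.18), and Bcan was then not called. In fits that left out 1 array at a time it ran from -1.11 to -0.93.

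**Figure D2:**
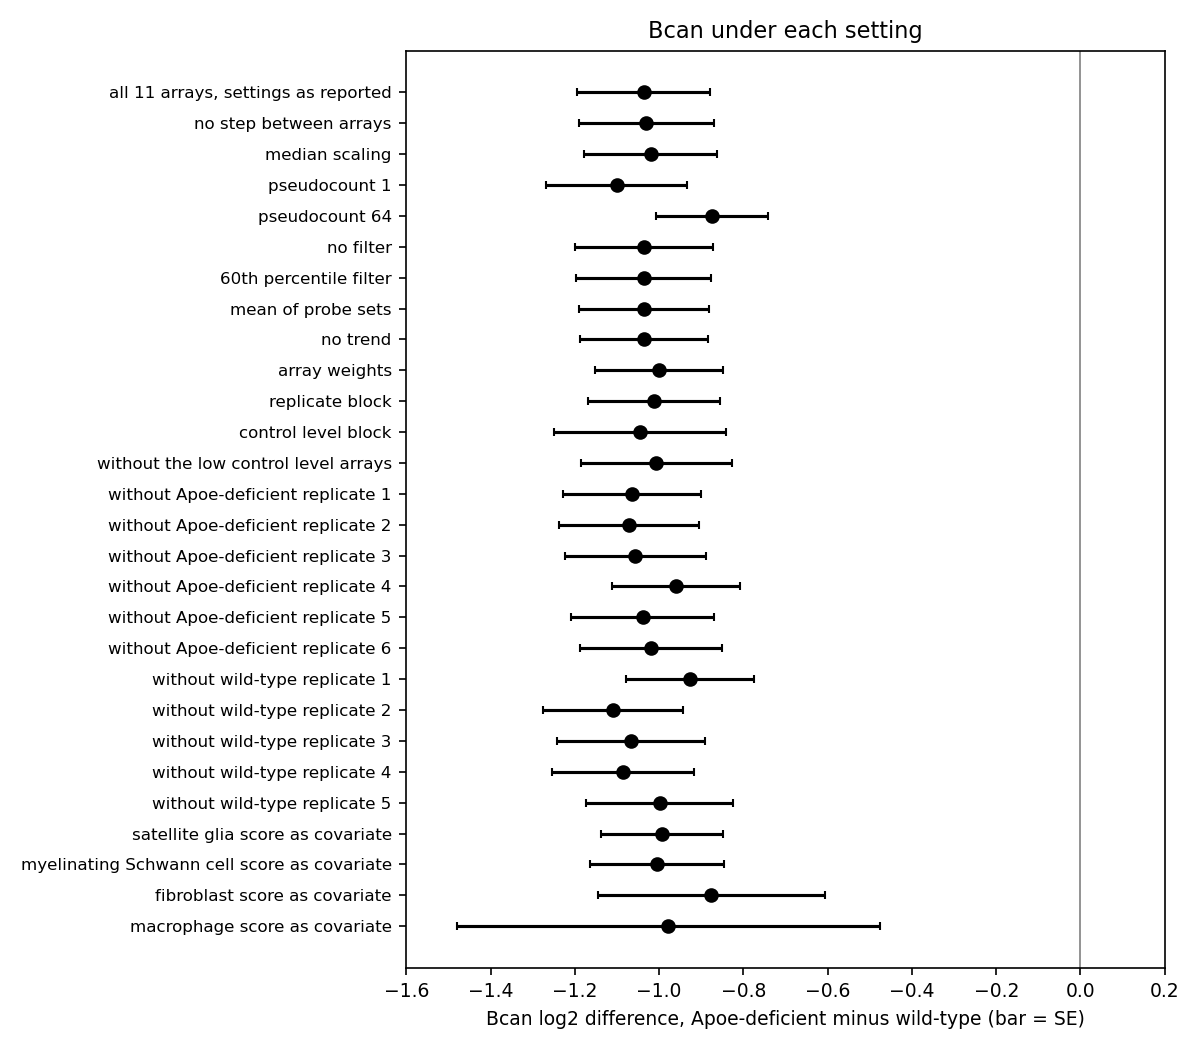
Bcan log2 difference, Apoe-deficient minus wild-type (horizontal axis, bars give the SE), with the settings as reported in the top row and each alternative in a row below. Every estimate lies between -1.11 and -0.87, and the bars are widest for the fibroblast and macrophage scores.

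The 300 bases around an annotated Bcan start are shown because Bcan is the gene whose level differed. The gene record reaches further 5′ than this start, so it is not the outermost one, and which start these ganglia use was not measured. The window runs from 250 bases before to 50 bases after it, lies at chr3:88000307-88000606 on the minus strand (GRCm38.p6, RefSeq) and is written 5′ to 3′. Capitals mark 1 CCAAT box (CCAAT) and 1 GC box (GGGCGG, here as its reverse complement).
Bcan: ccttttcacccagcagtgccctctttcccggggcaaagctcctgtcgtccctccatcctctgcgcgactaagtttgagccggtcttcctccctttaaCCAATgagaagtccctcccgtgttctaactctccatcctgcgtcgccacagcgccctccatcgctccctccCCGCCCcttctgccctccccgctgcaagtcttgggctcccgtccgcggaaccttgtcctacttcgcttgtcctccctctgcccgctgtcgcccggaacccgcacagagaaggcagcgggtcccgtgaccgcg

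Both motifs are common letters: on either strand, 37.4% of the 32851 windows of the same length held a CCAAT box and 35.7% a GC box. Windows were given for 6 of the 7 genes, and each of the 6 held a GC box, while Vcan and Acan also held a CCAAT box. The bases G and C made up 56.7% to 74% of these windows, beside a median of 52.7% over all windows. The share of 35.7% was not matched for base content. The TATA box (TATAAA, 13.6% of windows) was found in Ncan only among the 6. The Sox core (ACAAAG, 18.7% of windows) was found in 0 of the 6. No motif overlapped another in the Bcan window. These matches are descriptions of letters and say nothing of which factors bind.

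Markers of the cells that could hold brevican RNA were set beside it. Of 9 satellite glia markers with a probe set, 9 passed the filter and limma called 0, with 2 at an unadjusted p under 0.05. Their summed signal ran from 12096 to 22475 on Apoe-deficient arrays and from 11748 to 19458 on wild-type arrays, so the groups overlapped. With the mean of these markers as a covariate the Bcan difference was -0.99 (SE 0.15). With that of 4 myelinating Schwann cell markers, of which limma called 0 and 0 had an unadjusted p under 0.05, it was -1.005 (SE 0.16). The sum over the 6 Schwann cell markers with a probe set, Egr2 and Pllp below the filter included, ran from 12831 to 32794 on Apoe-deficient arrays. On wild-type arrays that sum ran from 13588 to 21165, again overlapping. Sums here and below take every listed gene with a probe set, and the brightest genes weigh most in them.

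Oligodendrocytes, the myelin cells of the central nervous system, were considered because Bcan and Cspg4 are known from their lineage. Of 8 such markers with a probe set, 3 passed the filter, and none was listed at 0. The defining genes Olig1, Olig2, Nkx2-2, Mog and Mobp were below the filter. The 3 tested markers did not move together. Mag, a myelin glycoprotein gene, differed by -0.06 and Pdgfra, a receptor gene of precursors and fibroblasts, by 0.35, neither called. Myrf, a transcription factor gene for central myelin, had a mean signal of 59.6 ± 28.8 (SD, n = 6) in Apoe-deficient and 163 ± 27.3 (SD, n = 5) in wild-type ganglia. Myrf was above the filter level on 0 Apoe-deficient and 5 wild-type arrays, so it entered the fit through the group where it is high, and its difference of -1.28 (SE 0.26) is given without a p. The summed signal of the list ran from 455 to 674 on Apoe-deficient and from 587 to 760 on wild-type arrays. The part of this list in the Bcan difference was not tested.

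Macrophage markers were called higher in 8 of 10, and their summed signals did not overlap, at 9933 to 14391 on Apoe-deficient arrays and 5565 to 7349 on wild-type arrays. Of 10 fibroblast markers 1, Postn, was called higher by limma, and 4 had an unadjusted p under 0.05. Fibroblast marker differences ran from 0.15 to 1.10, all higher in Apoe-deficient ganglia, with a median of 0.48. Their sums were 13037 to 20271 on Apoe-deficient and 10232 to 14419 on wild-type arrays. With the fibroblast score as a covariate the Bcan difference was -0.88 (SE 0.27), and with the macrophage score -0.98 (SE 0.50). Bcan was called in neither of these limma fits, which called 5 and 0 genes in all, with 460 and 520 at an unadjusted p under 0.05. White adipocyte markers, 7 of 8 past the filter, were called by limma in 0 cases, with 1 at an unadjusted p under 0.05. Adipocyte marker differences ran from -0.81 to -0.30, all lower in Apoe-deficient ganglia, with a median of -0.66. Their sums were 7197 to 48915 on Apoe-deficient and 18337 to 54906 on wild-type arrays. Among cartilage markers 3 of 10 passed the filter. Cnmd, a cartilage matrix gene above the filter level on 3 Apoe-deficient and 5 wild-type arrays, was lower. Its mean signal was 108 ± 47.9 (SD, n = 6) in Apoe-deficient and 352 ± 164 (SD, n = 5) in wild-type ganglia. Col9a1 differed by -0.93 (SE 0.32) and Col11a2 by 0.09 (SE 0.27), neither called. Sums of the cartilage list ran from 427 to 922 on Apoe-deficient and from 795 to 1376 on wild-type arrays, and overlapped. Col2a1, the defining cartilage collagen gene, was below the filter. For pericyte and smooth muscle markers 7 of 10 passed the filter, limma called 0 and 0 had an unadjusted p under 0.05, with overlapping sums of 3143 to 5542 on Apoe-deficient and 2801 to 6091 on wild-type arrays. Skeletal muscle markers had 2 of 10 past the filter, with 0 called by limma and 0 at an unadjusted p under 0.05, and their sums ran from 1072 to 3483 on Apoe-deficient and from 1009 to 3360 on wild-type arrays. Sums of the 8 noradrenergic neuron markers, of which limma called 0 and 2 had an unadjusted p under 0.05, ran from 35932 to 72872 on Apoe-deficient and from 50858 to 77675 on wild-type arrays. The part of these cell types in the Bcan difference was not tested beyond the covariates named.

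Neurocan, the other lectican known chiefly from the nervous system, did not share the separation seen for brevican. The Ncan probe set past the filter (1434679_at) had a lowest, median and highest signal of 189.8, 259.05 and 324.7 on the Apoe-deficient arrays. On the wild-type arrays its signals were 407.4, 321.7, 298.0, 211.5 and 282.6. The groups overlapped, and wild-type replicate 1, which was also highest for Bcan, was the highest of all. The log2 difference was -0.19 (SE 0.16, 95% interval -0.53 to 0.15). Without wild-type replicate 1 it was -0.085, without Apoe-deficient replicate 1 it was -0.12, and without wild-type replicate 4 it was -0.28. It was -0.53 within the high level of the standards and 0.27 within the middle level. A second Ncan probe set (1423604_at) was below the filter, with signals of 11.7 to 62.5 in Apoe-deficient and 16.9 to 37.7 in wild-type ganglia.

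Versican and aggrecan, the lecticans of connective tissue and cartilage, were near background. The brightest Vcan probe set (1427256_at) had a lowest, median and highest signal of 70.1, 91.8 and 112.7 on Apoe-deficient arrays. On wild-type arrays its signals were 35.7, 38.2, 86.2, 52.0 and 43.5. Of the 6 Apoe-deficient arrays 3 lay above every wild-type array, and the groups overlapped through wild-type replicate 3. Its log2 difference was 0.76 (SE 0.21), in the fit of all 22626 probe sets with no filter. The other Vcan probe sets differed by 0.32 (SE 0.30) and 0.06 (SE 0.29) in the same fit, the last of them by -0.08 without the 3 low arrays. The probe sets of Vcan thus gave unlike sizes, and on 1 array alone did a Vcan value pass the filter level. The Acan probe set had signals of 17.6 to 121.6, with a median of 64.7, on Apoe-deficient arrays. On wild-type arrays Acan had 56.2, 99.7, 96.0, 46.3 and 85.2, and the groups overlapped. Its difference was -0.18 (SE 0.29) in the unfiltered fit, and -0.28 (SE 0.38) without the 3 low arrays.

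Cspg4, the membrane proteoglycan of pericytes and oligodendrocyte precursors, was read by 2 probe sets past the filter. The brighter set (1450944_at) had a lowest, median and highest signal of 133.2, 235.9 and 301.2 on Apoe-deficient arrays. On wild-type arrays it had 241.0, 175.9, 263.3, 184.7 and 275.0, inside the range of the other group. Its log2 difference was -0.004 (SE 0.18, 95% interval -0.39 to 0.38), and it was 0.30 (SE 0.19) in the model with the level of the standards. The dimmer set (1423341_at) had 79.4, 136.95 and 378.9 as the lowest, median and highest Apoe-deficient signals, against 76.5 to 119.7 on wild-type arrays, a difference of 0.48 (SE 0.31) in the unfiltered fit. Its highest signal came from Apoe-deficient replicate 1, and without that array the difference was 0.22 (SE 0.21). That array also had the highest myelinating Schwann cell score, 1.16, where the other 10 lay between -0.51 and 0.53. The part of those markers in this value was not tested.

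Cspg5, a membrane proteoglycan with an EGF-like domain that is made by neurons and glia, had signals that overlapped between genotypes. Its lowest, median and highest signals were 407.3, 446.05 and 713.8 on Apoe-deficient arrays. On wild-type arrays the signals were 640.6, 470.3, 571.2, 422.8 and 479.6, within the span of the other group. The log2 difference was -0.05 (SE 0.16, 95% interval -0.39 to 0.30), and it was -0.11 (SE 0.17) without the 3 low arrays. Within the high level of the standards it was -0.41 and within the middle level 0.37.

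Ptprz1 varied widely among the Apoe-deficient arrays and little among the wild-type arrays. Its brightest probe set (1452284_at) had signals of 251.9, 563.65 and 815.6 as the lowest, median and highest on Apoe-deficient arrays. On wild-type arrays the signals were 449.2, 389.1, 433.7, 463.8 and 446.4. Of the 6 Apoe-deficient arrays 5 lay above every wild-type array and 1, replicate 6, lay below them all. On the log2 scale the SD was 0.59 among Apoe-deficient and 0.10 among wild-type arrays. The difference of means was 0.24 (SE 0.23, 95% interval -0.24 to 0.73).

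The highest Ptprz1 signals, 815.6, 696.9 and 615.7, were those of the 3 arrays with low hybridisation standards. Without these arrays the difference was -0.16 (SE 0.21), and in the model with the level of the standards it was -0.11 (SE 0.21). Within the high level it was -0.24 and within the middle level 0.08. Without Apoe-deficient replicate 3 it was 0.12, and without Apoe-deficient replicate 6 it was 0.46 (SE 0.14). That array had the lowest satellite glia score, -0.49, where the other 10 lay between -0.27 and 0.35. The part of the glial markers in the Ptprz1 spread was not tested. The other Ptprz1 probe sets differed by 0.14 (SE 0.19) and 0.07 (SE 0.18) in the unfiltered fit, and without the 3 low arrays by -0.19 and -0.17. The 3 sets followed each other over the arrays after the group means were removed, with Pearson correlations of 0.79 to 0.89 over 11 arrays, as is usual for sets that read 1 gene on the same RNA.

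**Figure D3:**
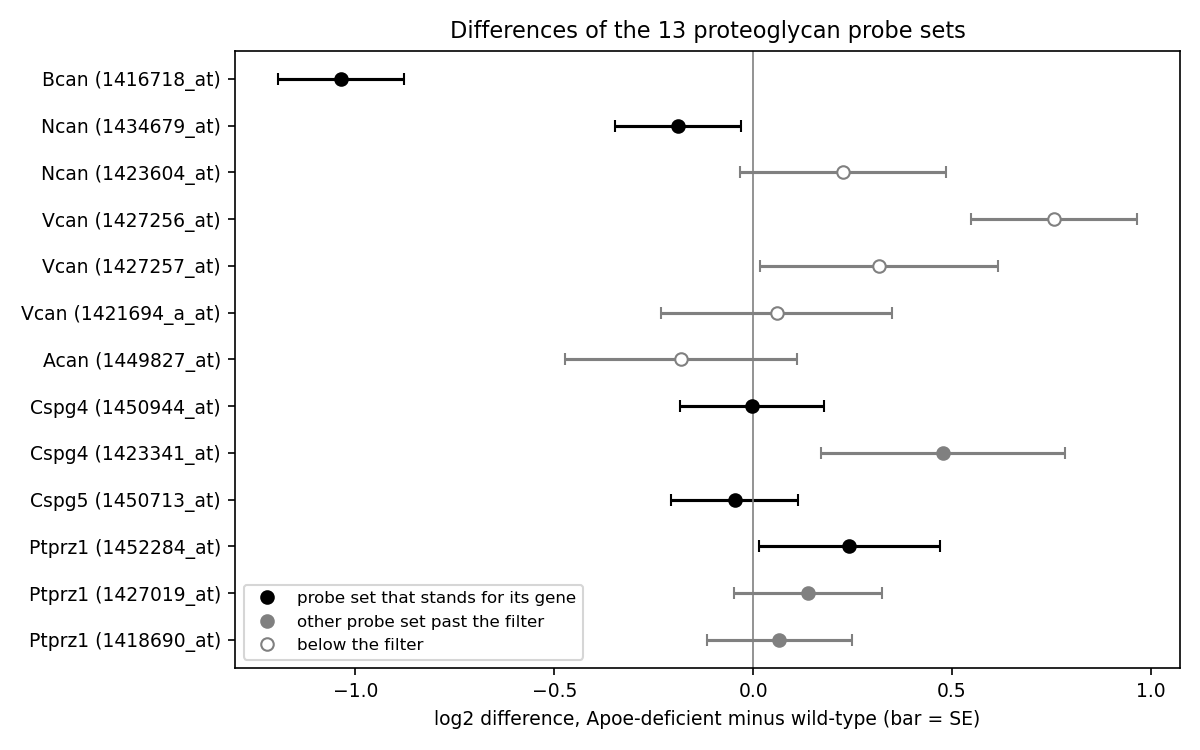
Log2 difference, Apoe-deficient minus wild-type (horizontal axis, bars give the SE), for each of the 13 probe sets. Black points stand for their gene in the fit of 8433 genes, grey points are other probe sets past the filter, and open points are below it. Bcan, at -1.04, lies apart from the 12 others, which run from -0.19 to 0.76.

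The arrays were next searched for genes that rose and fell with Bcan inside the groups, which uses the variation left once each genotype's mean is removed. Of 8311 named genes, Foxp1, a transcription factor gene, was most like it (Pearson 0.96, Spearman 0.95, over 11 arrays). Then came Asxl1, a chromatin regulator gene (0.94), Fam210b, which encodes a mitochondrial protein (0.92), Npc1, which exports cholesterol from lysosomes (0.91), and Fbxw8, a ubiquitin ligase subunit gene (0.89). The most opposite were Spryd4 (-0.89), the hydrolase gene Cmbl (-0.89) and Emc4, which encodes a subunit of the endoplasmic reticulum membrane complex (-0.89). Without the 2 arrays farthest from the median, wild-type replicate 1 and Apoe-deficient replicate 4, the Pearson values ran from 0.78 to 0.94 for the first 5 genes and from -0.84 to -0.78 for the last 3. They are the extremes of many genes over few arrays that share a processing, so they are given as a description with no p. Among these 8 genes Fbxw8 was also called between genotypes, at -0.79 (SE 0.14, limma adjusted p = 0.00880), though not without the 3 low arrays (-0.72, limma adjusted p = 0.15), while the other 7 differed by -0.17 to 0.22.

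Genes that work with the proteoglycans were then counted, in lists of 101 names chosen by function. Of these 81 had a single-gene probe set and 63 passed the filter. In the fit over all genes 1 of the 63 was called, or 1.59%, against 1.93% of all tested genes. An unadjusted p under 0.05 was found for 20 of the 63, against 1708 of all 8433 tested genes. The median difference of the 63 was -0.02, against -0.04 over all genes. Cd74, Adamts5 and Thbd were the 3 of the 63, or 4.76%, whose normalised values did not overlap, against 2.96% of all genes.

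Of the partners that hold lecticans in the matrix 5 of 12 were tested, limma called 0 and 1 had an unadjusted p under 0.05. They included Tnc, a tenascin gene, at 153 ± 42.5 (SD, n = 6) in Apoe-deficient and 126 ± 25.2 (SD, n = 5) in wild-type ganglia. Has1, a hyaluronan synthase gene, had 156 ± 66.1 in Apoe-deficient and 220 ± 46.2 in wild-type ganglia. The log2 differences were 0.26 for Tnc (limma adjusted p = 0.41) and -0.50 for Has1 (limma adjusted p = 0.23). That of Tnc was 0.13 both without Apoe-deficient replicate 2 and without the 3 low arrays. The link protein genes Hapln1 and Hapln2 were below the filter. Hapln3, Hapln4 and the tenascin gene Tnr had no single-gene probe set, so nothing is said of them.

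Enzymes that build the chains gave 0 limma calls among 10 tested, with 2 at an unadjusted p under 0.05. Csgalnact2, which starts chondroitin chains, differed by 0.60 (SE 0.25, limma adjusted p = 0.20), and B4galt7, which adds a sugar of the linker that joins chain and protein, by -0.43 (SE 0.18, limma adjusted p = 0.21). Without the 3 low arrays Csgalnact2 differed by 0.15 and B4galt7 by -0.18, and in the model with the level of the standards by 0.22 and -0.26. Among 8 tested genes of sulfation limma called 0, and 0 had an unadjusted p under 0.05. Chst14, a dermatan sulfotransferase gene, differed by 0.56 (SE 0.41), and Slc35b3, a transporter gene for the sulfate donor, by -0.28 (SE 0.21). Single arrays moved both: Chst14 was 0.25 without wild-type replicate 2 and 0.28 without wild-type replicate 5, and Slc35b3 was -0.13 without wild-type replicate 1 and -0.48 without wild-type replicate 3. Of 8 tested genes that break chains down in lysosomes or outside cells limma called 0 and 2 had an unadjusted p under 0.05. They included the lysosomal enzyme genes Gusb (0.27, limma adjusted p = 0.21) and Galns (-0.41, limma adjusted p = 0.19). Without the 3 low arrays Galns differed by -0.20.

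Proteases that cut the core proteins, with their inhibitors, gave 0 limma calls among 9, with 4 at an unadjusted p under 0.05. Adamts5, an aggrecanase gene, had signals of 512.1 to 762.1 on Apoe-deficient and 749.1 to 1190.6 on wild-type arrays. Its signals overlapped through 1 Apoe-deficient array, although its normalised values did not. It differed by -0.54 on the log2 scale (SE 0.13, limma adjusted p = 0.053), so it missed the threshold. It was called in 5 of 27 alternative fits, those with the stricter filter, with array weights, and without Apoe-deficient replicate 1, Apoe-deficient replicate 6 or wild-type replicate 4. A second probe set gave -0.16. Mmp2, a gelatinase gene, differed by -0.47 (SE 0.16, limma adjusted p = 0.14), and by -0.51 in its second probe set. Wild-type replicate 4 was the lowest wild-type array for both genes, and without it Adamts5 differed by -0.61 and Mmp2 by -0.62, both called.

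Receptors and ligands gave 0 limma calls among 12, with 3 at an unadjusted p under 0.05. The galectin gene Lgals3 differed by 0.73 (SE 0.22, limma adjusted p = 0.10). Ptn, which encodes pleiotrophin, a ligand of Ptprz1, had 3711 ± 1132 (SD, n = 6) in Apoe-deficient and 2445 ± 346 (SD, n = 5) in wild-type ganglia, a difference of 0.58 (SE 0.19, limma adjusted p = 0.12), and both Ptn probe sets gave that size. Without Apoe-deficient replicate 6 both Lgals3 and Ptn were called. Without the 3 low arrays Ptn differed by 0.19 (SE 0.14, limma adjusted p = 0.68), and in the model with the level of the standards by 0.21 (SE 0.14). Among the chain receptors Ptprs differed by -0.21, Ptprf by -0.34 and Rtn4r by 0.10, none of them called.

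Other proteins that can carry chondroitin sulfate gave the single call among the 63 genes. Of 11 tested, limma called Cd74 higher and 0 lower, and the median difference of the list was 0.37. At an unadjusted p under 0.05 there were 8 of the 11, beside 1708 of all 8433 tested genes. Of the 8, Spock2 and Aplp2, an amyloid precursor-like gene, were in the lower direction. Aplp2 differed by -0.21, and its other probe sets past the filter by -0.16, 0.205, -0.11 and 0.76. Cd74 encodes the invariant chain of MHC class II, which carries a chain in part of its molecules. Its signals were 2411.4, 2467.8, 2044.6, 2928.6, 4149.5 and 5462.8 on Apoe-deficient arrays, against 963.9 to 1328 on wild-type arrays, so the groups did not overlap. Cd74 differed by 1.38 (SE 0.22, limma adjusted p = 0.00581). It is also a gene of antigen-presenting cells, and the macrophage markers beside it were higher on the same arrays, as given above. With the macrophage score as a covariate Cd74 differed by 1.84 (SE 0.70) and was not called. The part of these cells in the Cd74 difference was not tested beyond that covariate. Close to the threshold stood Srgn, the serglycin gene of blood-derived cells (0.59, SE 0.15, limma adjusted p = 0.052), and Spock2, a testican gene (-0.58, SE 0.15, limma adjusted p = 0.063). Each was called in several alternative fits, Srgn in 8 and Spock2 in 6 of 27, and leaving out wild-type replicate 4 or Apoe-deficient replicate 5 gave a call for both. Without the 3 low arrays Spock2 differed by -0.38 (SE 0.15). A second Spock2 probe set, below the filter, gave 0.84.

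**Figure D4:**
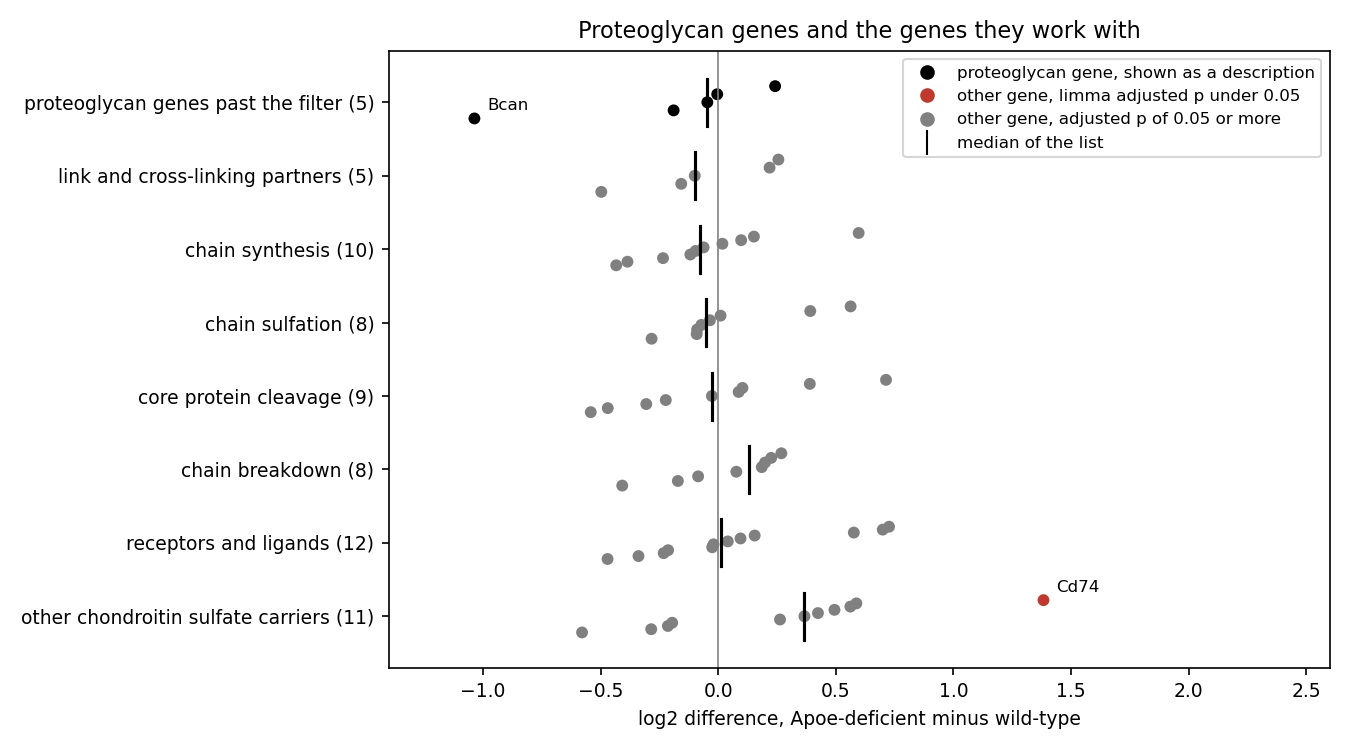
Log2 difference, Apoe-deficient minus wild-type (horizontal axis), of the 5 proteoglycan genes past the filter (top) and of the tested genes in each list of genes that work with them, with the number tested in brackets. Each point is a gene and the upright bar is the list median. Bcan lies at -1.04 and Cd74, the red point, at 1.38, while the other points lie between -0.58 and 0.73.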

How the data were processed

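Arrays were grouped by the genotype and number in the sample titles. The authors deposited 1 linear intensity per probe set and array, with GCOS 1.4 as the tool that the submitters' processing notes name. How the signal was computed, and on which genome build, was not given in the sources used here. The deposited intensity values of each array had a 2% trimmed mean near 500.2 and medians of 163 to 188.6. Precision is limited by how many arrays there are.

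After 64 controls were left out, 16 was added to each signal before log2, and arrays were quantile normalised. Probe sets above the 40th percentile on at least 5 arrays were kept, each gene by its brightest single-gene probe set, and the resulting 8433 genes were fitted in R 4.3.3 by limma 3.58.1 (trended variance, two-sided, Benjamini-Hochberg, threshold 0.05). The same model over all 22626 non-control probe sets described the remaining sets. Of 20380 single-gene probe sets, 20351 matched the RefSeq table of GRCm38.p6, used for names and promoter windows. The test was checked on simulated data.

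The proteoglycan genes, lists and rules were chosen with earlier results of these data known. Genes named were the 7 proteoglycans, called genes of each list or its 2 of smallest p, and the genes most like or unlike Bcan. Srgn, Spock2, Aplp2, Ptprd, the chain receptors, Fbxw8's call and the named markers were picked after their values were seen. Unnamed predicted genes were skipped. A marker score was the mean of centred log2 values. Hybridisation levels were split at the 2 largest gaps in the mean of 11 control probe sets. Figures used matplotlib 3.10.9.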

Additional observations from a re-analysis of the deposited data

Results flagged for a closer look

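The values of the 13 proteoglycan probe sets and of the 13 genes named from the lists were checked for single arrays far from the rest of their group, in 52 sets of values, of which chance alone is held to flag about 1 in 20. The check used normalised log2 values, and on that scale 0 arrays stood out for the 7 proteoglycan genes. In signals, the dimmer Cspg4 probe set had 378.9 on Apoe-deficient replicate 1, where the other Apoe-deficient arrays had 79.4 to 158.3. On Apoe-deficient replicate 1 Chst14 had a signal of 210.5, where the other Apoe-deficient arrays had 95.1 to 121.8. On Apoe-deficient replicate 2 Tnc had a signal of 238.1, where the others of that genotype had 128.2 to 151.7. On wild-type replicate 4 Mmp2 had a signal of 837.7, below the 1295.2 to 1582.2 of the other wild-type arrays.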

How the results depend on the processing

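The Bcan difference, around which the genes were gathered, ran from -1.11 to -0.87 over the 27 alternatives. Among the 13 unfiltered probe sets 0 were called by limma with the control level block and 0 without the low control level arrays, settings added for them after seeing the data, with 2 at an unadjusted p under 0.05 in each. Among the filtered genes Bcan was not called without the low control level arrays (-1.01), or with the fibroblast (-0.88) or macrophage score (-0.98) as a covariate, so those 3 fits called 0 proteoglycan genes by limma, with 1, 1 and 0 at an unadjusted p under 0.05. The 4 marker scores were alternatives chosen after seeing the data. The macrophage score separates the groups, and with it 0 of 8433 genes were called by limma and 520 had an unadjusted p under 0.05.

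The count of called genes, 163 as reported, was 668 with array weights, 45 with the control level block, 24 without the low control level arrays and 5 with the fibroblast score. Without 1 array at a time it ran from 75 to 267: it was 260, 106, 75 and 100 without Apoe-deficient replicates 1 to 4, and 80, 77, 96, 267 and 77 without wild-type replicates 1 to 5. The count of called companion genes, 1 as reported, was 2 with no step between arrays, 3 with median scaling, 3 with the 60th percentile filter, 2 with the mean of probe sets, 8 with array weights, 4 with the satellite glia score and 0 with the macrophage score, where 2 had an unadjusted p under 0.05. Leaving out single arrays gave 1 to 6, with 2 when Apoe-deficient replicate 1 or 2 was dropped, 4 for replicate 5, 6 for replicate 6 and 5 for wild-type replicate 4. In all, 11 companion genes were called in at least 1 fit, and Cd74 was called in 26 of 27 alternatives.

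Some differences changed sign, the larger of these with the fibroblast or macrophage score. Those of Bcan, Cd74, Adamts5, Mmp2, Chst14, Gusb, Slc35b3 and Tnc kept their sign in every alternative that measured them. Cspg4 was 9.97e-05 with pseudocount 64, 0.24 with the mean of probe sets, 0.30 with the control level block, 0.27 without the low arrays, 0.0011, 0.25 and 0.26 with the Schwann cell, fibroblast and macrophage scores, and -0.088 to 0.12 without single arrays. Cspg5 was 0.0071 with the replicate block, 0.15 with the fibroblast score and -0.14 to 0.034 without single arrays. Ptprz1 was -0.11 with the control level block, -0.16 without the low arrays, and -0.22 and -0.29 with the fibroblast and macrophage scores. Ncan was 0.31 and 0.052 with those scores, Csgalnact2 -0.37 and -0.64 and Has1 0.22 and 0.19. With the macrophage score B4galt7 was 0.10, Galns 0.24, Lgals3 -0.33, Ptn -0.59, Srgn -0.26 and Spock2 0.30. The cause was not tested.

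Replicate numbers did not pair the arrays: correlations of deviations between arrays of the same number ran from -0.18 to 0.15, and 1 of 10 arrays correlated best with its own number. With the replicate number as a block 185 genes and 4 companion genes were called, and the Bcan difference was -1.01. Signals near background limit Vcan, Acan and the dim probe sets of Ncan.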
